A study of Mus musculus with 6 samples.

Results

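Heat shock proteins and their cochaperones were examined in PARP2-silenced (shPARP2) and control (scPARP2) C2C12 cells. The group holds the HSP70, HSP90, HSP60, HSP10, HSP110 and small heat shock proteins, the DNAJA, DNAJB and DNAJC proteins, which carry a J domain, the BAG proteins and the heat shock factors. Genes were chosen by symbol with no threshold on their values, but with earlier results of these data known. Where several probe sets named a gene alone, the brightest stood for it. This gave 81 genes in 9 families out of 19938 genes on the arrays, namely 28 DNAJC, 13 DNAJB, 12 HSP70, 8 small heat shock protein, 6 BAG, 5 heat shock factor, 4 DNAJA, 3 HSP60, HSP10 or HSP110 and 2 HSP90 genes. Hsf2bp, counted with the heat shock factors, was included only because its symbol matches, since it encodes a binding partner of HSF2. The small heat shock proteins, Hspb11 among them, were likewise taken by symbol alone. Hsf1, Hsp90ab1 and Hspa1b had no probe set naming them alone and were not analysed here as single genes.

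C2C12 is a mouse myoblast line that can fuse into myotubes. shPARP2 cells had received a lentivirus coding for an shRNA against PARP2, and scPARP2 cells one with a scrambled shRNA. Both lines were grown in DMEM with glucose and fetal calf serum, and 3 arrays of total RNA were hybridized for each line. Each condition rests on a single line, so that PARP2 loss and other properties of a line cannot be told apart. Whether the arrays of a line came from separate cultures is not given, and p-values therefore measure the spread between these samples only.

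HSP70 proteins bind and release unfolded stretches of protein in a cycle driven by ATP. J-domain proteins bring the substrate and trigger ATP hydrolysis, whereas nucleotide exchange factors such as the HSP110 and BAG proteins let the substrate go. HSP90 acts later, on near-native clients, chaperonins fold proteins inside a closed ring, and small heat shock proteins hold unfolding proteins without ATP. In stressed cells the transcription factor HSF1 is released from chaperones, trimerizes and binds heat shock elements, which are inverted repeats of the unit GAA, in the promoters of many of these genes. In muscle the small heat shock proteins and BAG3 are abundant and take part in the upkeep of the contractile apparatus.

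Parp2 itself read 7.97 ± 0.15 in shPARP2 cells and 9.04 ± 0.10 in scPARP2 cells (log2 signal with SD over 3 arrays). Its log2 fold change was -1.07 (SE 0.10, limma adjusted p = 0.00103). Array medians lay between 7.04 and 7.18. The 8 myoblast markers lay between the 46.2th and 99.8th percentile of mean signal, so none was dim. Of these 5 were higher in shPARP2 cells (62.5%, against 12.4% of all genes). So were 8 of the 10 muscle differentiation genes (80%), and Mef2c was lower. Without 1 array, Ckm lost its call in all 6 fits (adjusted p up to 0.182) and Des in 5 (up to 0.148). The summed level of the muscle differentiation genes, the log2 of their added signals, was 13.94 to 14.23 on shPARP2 arrays and 12.84 to 12.92 on scPARP2 arrays. Of 22 markers of fat, bone or cartilage, leukocyte, epithelial or endothelial cells, Cd68 passed the test (log2 fold change -0.72, adjusted p = 0.00119). The part of the muscle genes in the results below was not tested.

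Promoter sequences were compared first, since heat shock elements are what many of these genes are known to share. RefSeq promoter windows (GRCm38.p6, 250 bases before to 50 bases after each start) were matched to 66 of the 81 genes. The element of 3 units (GAA, any 2 bases, TTC, any 2 bases and GAA, read on either strand) was found in 4 of them (6.06%), against 0.662% of all 27025 genes with a window. Hsph1 was higher in shPARP2 cells, while Hspd1, Hspe1 and Dnajb6 did not pass the test on the probe sets that stood for them. For Dnajb6, brighter probe sets that it shares with Gm4247 were higher, as given below. Hspd1 and Hspe1 lie head to head and share 1 stretch, shown for Hspe1, so the 4 genes hold 3 separate matches. The stretches are printed 5′ to 3′ in the direction of the gene, with the element or overlapping elements in capitals.
Hsph1, chr5:149636280-149636309, minus strand, element at +16 to +28 from the start: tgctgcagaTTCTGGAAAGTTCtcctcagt
Hspe1, chr1:55088038-55088097, plus strand, elements at -89 to -72: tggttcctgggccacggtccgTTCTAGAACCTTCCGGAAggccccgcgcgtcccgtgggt
Dnajb6, chr5:29735828-29735887, plus strand, element at -46 to -34: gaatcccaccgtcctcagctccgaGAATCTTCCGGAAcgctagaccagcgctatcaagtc

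A shorter pattern of 2 units (GAA, any 2 bases and TTC, or TTC, any 2 bases and GAA) was searched after the data had been seen, and it lies within every match of the longer one. It was present in 17 of the 66 windows (25.8%), against 17.0% of all genes. By result, it was present in 6 of 12 genes that were higher in shPARP2 cells, in 2 of 3 that were lower and in 9 of 51 that did not pass. Hspa1a, Dnaja1, Dnaja4, Dnajb4 and Bag3 are displayed because they were the higher genes that carried the short pattern alone. Dnaja4 held 2 matches, of which 1 is displayed, and the match of Bag3 lies after the start. The windows of Dnajb1, which changed most, and of Dnaja2 held neither pattern, which says only that these letters are absent from the windows examined.
Hspa1a, chr17:34972227-34972286, minus strand, pattern at -104 to -97: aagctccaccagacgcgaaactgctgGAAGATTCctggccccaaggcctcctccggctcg
Dnaja1, chr4:40722318-40722377, plus strand, pattern at -124 to -117: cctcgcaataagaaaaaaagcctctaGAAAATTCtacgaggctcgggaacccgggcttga
Dnaja4, chr9:54699458-54699487, plus strand, pattern at -90 to -83: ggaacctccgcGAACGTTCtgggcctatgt
Dnajb4, chr3:152193841-152193870, minus strand, pattern at -14 to -7: ttcgttcgctgTTCTAGAAagtacagagac
Bag3, chr7:128523603-128523632, plus strand, pattern at +43 to +50: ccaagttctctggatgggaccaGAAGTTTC

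Among the 81 genes, 15 rose and 4 fell in shPARP2 cells at an adjusted p under 0.05 (limma, Benjamini-Hochberg over all probe sets), and 62 did not pass. Over all genes, 12.4% were higher, 11.6% were lower and 24.0% passed in either direction. The share that passed, 23.5%, was therefore near that of all genes, with 18.5% higher and 4.94% lower. The count of lower genes was not stable: the split was 18 higher and 2 lower after each array was centred on its median and 20 higher and 10 lower with array weights. With 1 array left out, 12 to 18 genes were higher and 0 to 7 lower, with 0 lower without shPARP2 replicate 1 or any 1 of the scPARP2 arrays and 7 without shPARP2 replicate 2. All 3 shPARP2 arrays lay above all scPARP2 arrays for 31 genes (38.3%, against 20.7% of all genes) and below them for 15 genes (18.5%, against 21.4%). The median log2 fold change was 0.04, and it was -0.02 over all genes. The changes were of moderate size, since 9 of the higher genes and 1 of the lower genes reached 1.5-fold. Genes that passed and reached 1.5-fold were thus 10 of the 81, beside 2012 of all 19938 genes.

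**Figure D1:**
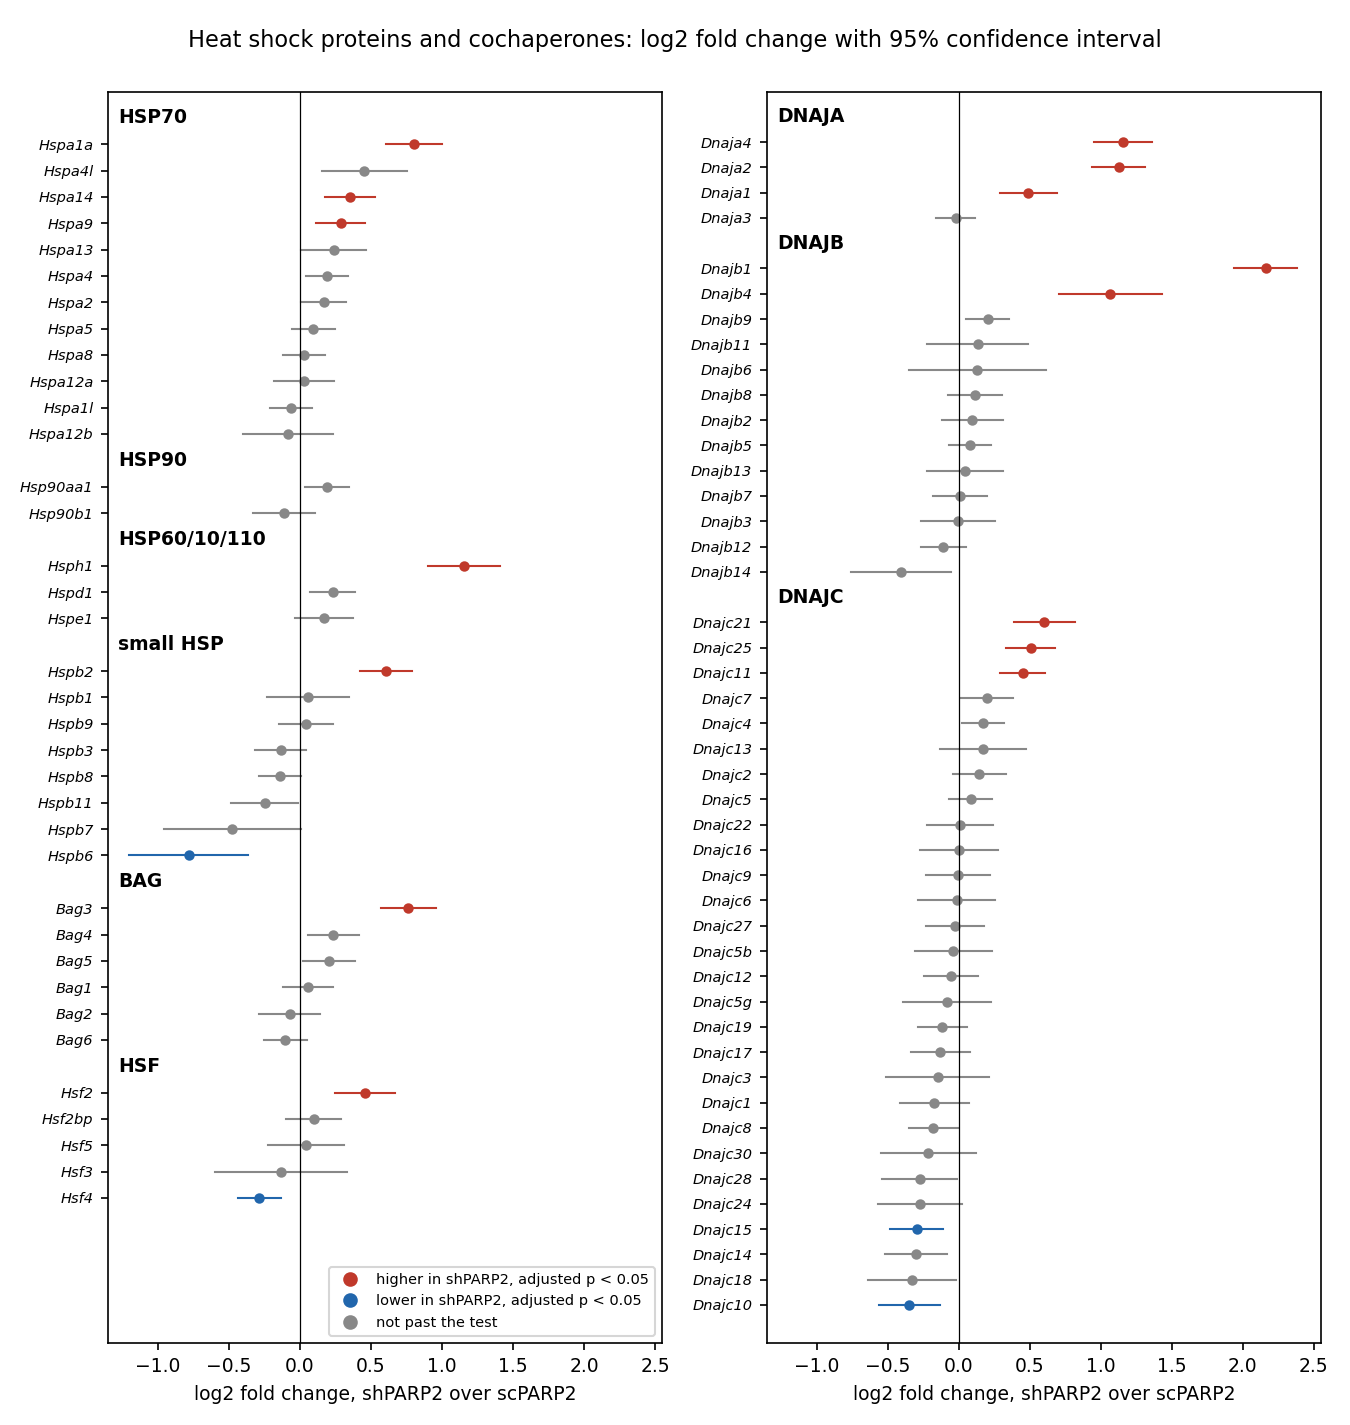
Log2 fold change of shPARP2 over scPARP2 cells (x axis) for each of the 81 genes (rows, by family), with 95% confidence intervals from limma. Dnajb1 stands furthest to the right at 2.16, the other higher genes lie between 0.29 and 1.16, and most DNAJC genes lie around 0.

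Several J-domain proteins that work with the cytosolic HSP70s were higher, and Dnajb1 had the largest change of the 81 genes. Dnajb1, the main HSP40 of the heat shock response, had a log2 signal of 11.86, 11.82 and 11.87 on the shPARP2 arrays, against 9.86, 9.57 and 9.63 on the scPARP2 arrays. The shPARP2 values were nearly equal and far above every scPARP2 value. Dnajb1 rose by 2.16 on the log2 scale, that is 4.48-fold (SE 0.09, adjusted p = 7.3e-05). Dnaja4, a cochaperone of the same type as bacterial DnaJ, read 9.47, 9.51 and 9.69 in shPARP2 cells, against 8.48, 8.36 and 8.35 in scPARP2 cells. Dnaja2, which also promotes refolding by HSP70, read 12.18, 12.05 and 12.28 in shPARP2 cells, against 11.02, 11.06 and 11.04 in scPARP2 cells. Both were separated by gaps wider than the spread of either line, and they rose by 1.16 (SE 0.09, adjusted p = 0.000463) and 1.13 (SE 0.08, adjusted p = 0.000371).

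Dnajb4, a DNAJB protein expressed in muscle, read 11.42, 11.30 and 11.71 in shPARP2 cells, against 10.60, 10.17 and 10.45 in scPARP2 cells. Its spread was wider than that of Dnajb1, but the lines did not overlap (log2 fold change 1.07, SE 0.15, adjusted p = 0.00445). Dnaja1, whose farnesylated product assists HSP70 in the cytosol, read 11.65, 11.66 and 11.83 in shPARP2 cells, against 11.31, 11.14 and 11.22 in scPARP2 cells (log2 fold change 0.49, SE 0.08, adjusted p = 0.00915). The smaller rise of Dnaja1 differed between its probe sets, as given below. Dnaja3, the mitochondrial member of the DNAJA family, had a log2 fold change of -0.02 with overlapping lines. Thus 3 of the 4 DNAJA genes and 2 of the 13 DNAJB genes rose, and none fell (at an unadjusted limma p under 0.05, Dnajb14 would be lower). The remaining 11 DNAJB genes had log2 fold changes between -0.40 and 0.20, and 3 of them were dim, with a mean signal under the 40th percentile of all probe sets. These 5 calls held in all 13 alternatives, including each array left out. Of all 45 J-domain genes, with the DNAJC genes below, 8 were higher and 2 were lower. The share that passed was 22.2%, near the 24.0% of all genes. By direction it was 17.8% higher and 4.44% lower, against 12.4% and 11.6%.

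**Figure D2:**
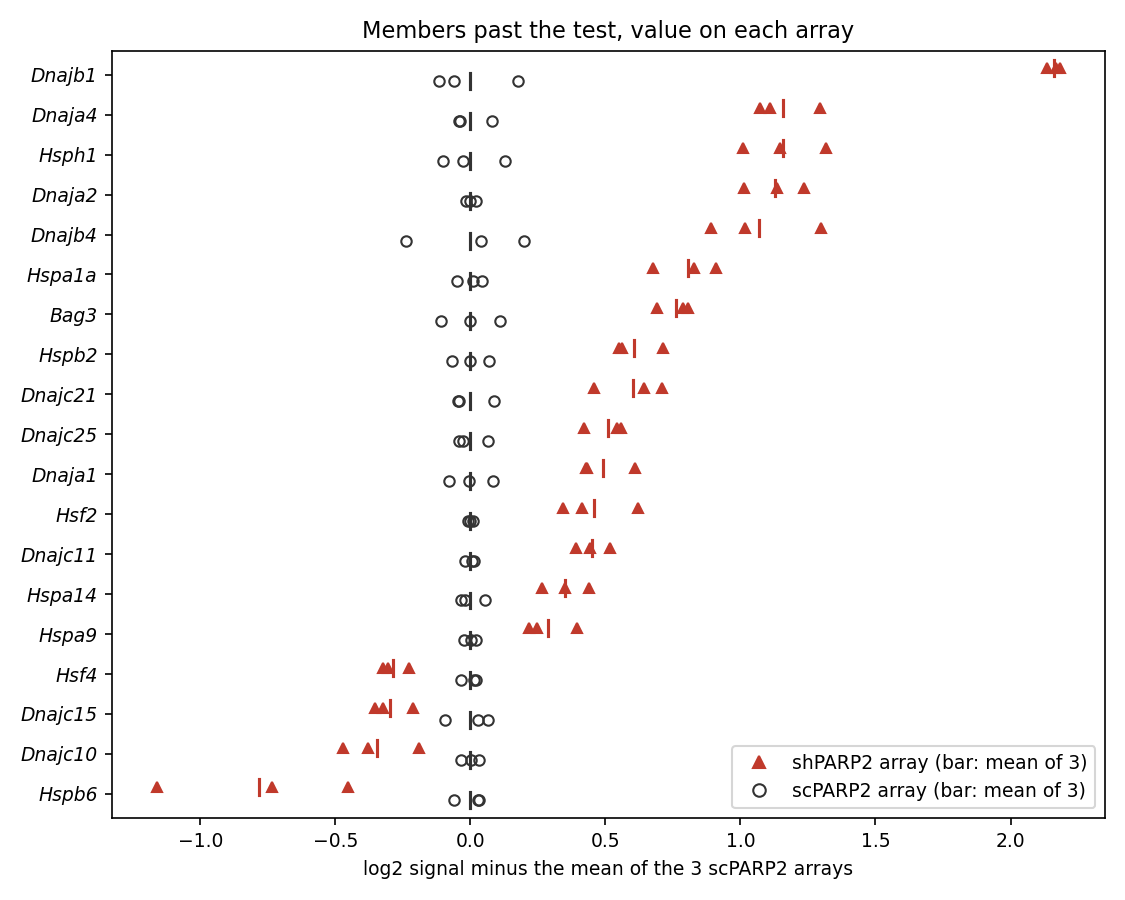
Signal of each array minus the mean of the scPARP2 arrays (x axis, log2) for the 19 genes past the test (rows), with shPARP2 arrays as filled triangles, scPARP2 arrays as open circles and bars at the means of 3 arrays. The arrays of the lines do not overlap for any of these genes, and Hspb6 has the widest spread among shPARP2 arrays.

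Within the HSP70 family 3 of 12 genes rose (25%, against 12.4% of all genes) and none fell, with a median log2 fold change of 0.18. At an unadjusted limma p under 0.05 these counts were 7 and 0. Hspa1a, the stress-inducible HSP70, read 8.50, 8.35 and 8.58 in shPARP2 cells, against 7.62, 7.68 and 7.72 in scPARP2 cells (log2 fold change 0.80, SE 0.08, adjusted p = 0.00143). Hspa14, an HSP70-like protein of the ribosome, rose by 0.35 (SE 0.07, adjusted p = 0.0193), and Hspa9, the mitochondrial HSP70, rose by 0.29 (SE 0.07, adjusted p = 0.0383). Hspa8, the constitutive cytosolic HSP70, read 13.61, 13.64 and 13.67 in shPARP2 cells, against 13.60, 13.60 and 13.64 in scPARP2 cells. Its values overlapped, and the log2 fold change was 0.03 (95% interval -0.12 to 0.17). Hspa5, the HSP70 of the endoplasmic reticulum also called BiP, had a log2 fold change of 0.10 (adjusted p = 0.389). Hspa13, Hspa2, Hspa12a, Hspa12b and Hspa1l, which was dim, lay between -0.08 and 0.24 and did not pass. Hspa14 lost its call without any 1 of the scPARP2 arrays (adjusted p up to 0.0939), and Hspa9 lost it in 5 of the 6 fits that left out an array (adjusted p up to 0.141).

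Among the nucleotide exchange factors, Hsph1 changed most. Hsph1, the inducible HSP110, read 12.15, 12.01 and 12.32 in shPARP2 cells, against 11.13, 10.90 and 10.97 in scPARP2 cells. The gap between the lines was several times the spread within either (log2 fold change 1.16, SE 0.10, adjusted p = 0.000969). Its relatives Hspa4l and Hspa4 lay above scPARP2 on every shPARP2 array, as did 20.7% of all genes. They did not pass, with log2 fold changes of 0.45 (adjusted p = 0.0514) and 0.19 (adjusted p = 0.0870). Bag3, which links HSP70 to small heat shock proteins and to autophagy, read 11.39, 11.37 and 11.27 in shPARP2 cells, against 10.69, 10.47 and 10.58 in scPARP2 cells. Bag3 rose by 0.76 (SE 0.08, adjusted p = 0.00165), and it was the only one of 6 BAG genes to pass (16.7%, against 24.0% of all genes). Bag4 and Bag5 had log2 fold changes of 0.24 and 0.21. For these and Bag3, all shPARP2 arrays lay above all scPARP2 arrays (50% of BAG genes, against 20.7% of all genes). Bag1, Bag2 and Bag6 lay between -0.10 and 0.06.

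Hspb8 and Stub1, partners of BAG3 in the autophagy of damaged muscle proteins, were not higher at the threshold. Hspb8, the small heat shock protein that binds BAG3, had a log2 fold change of -0.14 (adjusted p = 0.2). Stub1, the ubiquitin ligase of this complex, also called CHIP, was lower, reading 9.80, 9.81 and 9.82 in shPARP2 cells, against 10.24, 10.38 and 10.31 in scPARP2 cells (log2 fold change -0.50, SE 0.07, adjusted p = 0.00356).

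The small heat shock proteins went in different directions. Hspb2, a muscle protein, rose by 0.61 (SE 0.08, adjusted p = 0.00323), with 8.86, 9.02 and 8.87 in shPARP2 cells against 8.24, 8.31 and 8.38 in scPARP2 cells. Hspb6, also called HSP20, read 10.32, 10.60 and 9.89 in shPARP2 cells, against 10.99, 11.08 and 11.08 in scPARP2 cells. Every shPARP2 array was below scPARP2, replicate 3 by the most, and the log2 fold change was -0.78 (SE 0.17, adjusted p = 0.0244). Hspb6 lost its call without shPARP2 replicate 1 (adjusted p = 0.0682) and without any 1 of the scPARP2 arrays (adjusted p up to 0.0850). Hspb7, a cardiac and skeletal muscle member, read 7.56, 7.75 and 6.96 in shPARP2 cells, against 7.82, 7.99 and 7.88 in scPARP2 cells, and did not pass (log2 fold change -0.48, adjusted p = 0.174).

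Hspb1, or HSP25 in the mouse, and Cryab, the αB-crystallin, which lies head to head with Hspb2, had overlapping lines. Hspb1 read 12.32, 12.41 and 12.05 in shPARP2 cells, against 12.06, 12.31 and 12.23 in scPARP2 cells, a log2 fold change of 0.06 (95% interval -0.23 to 0.34). The sign of this small difference turned when shPARP2 replicate 2 or scPARP2 replicate 1 was left out (-0.02 in both fits). Cryab had a log2 fold change of 0.07 (adjusted p = 0.768), which turned to -0.01 without shPARP2 replicate 2. In all, 1 of 8 small heat shock proteins rose and 1 fell, and the 25% that passed was near the 24.0% of all genes. On all shPARP2 arrays 5 lay below scPARP2, Hspb11 among them (62.5%, against 21.4% of all genes). The median log2 fold change of the small heat shock proteins was -0.14. For the muscle differentiation genes, described above, it was 1.01, and their part in the values of these proteins was not tested.

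Neither HSP90 gene passed (1, Hsp90aa1, at an unadjusted limma p under 0.05). Hsp90aa1, the inducible cytosolic form, read 12.96, 12.93 and 13.04 in shPARP2 cells, against 12.78, 12.80 and 12.77 in scPARP2 cells (log2 fold change 0.19, adjusted p = 0.0938). It passed in 4 of the 13 alternatives. Hsp90b1, the form of the endoplasmic reticulum also called GRP94, had a log2 fold change of -0.11 (adjusted p = 0.494). Of the mitochondrial chaperonin, Hspd1 (HSP60) read 12.42, 12.39 and 12.53 in shPARP2 cells, against 12.22, 12.22 and 12.21 in scPARP2 cells (log2 fold change 0.23, adjusted p = 0.0575), and it passed in 7 of the 13 alternatives. Hspe1 (HSP10) read 12.47, 12.51 and 12.71 in shPARP2 cells, against 12.40, 12.39 and 12.38 in scPARP2 cells (log2 fold change 0.17, adjusted p = 0.243). For both, every shPARP2 array was above every scPARP2 array by a small margin, as was so for 20.7% of all genes.

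Of the heat shock factors, Hsf2, a partner of HSF1 that is also active in development, rose, with 10.64, 10.56 and 10.84 in shPARP2 cells against 10.22, 10.21 and 10.23 in scPARP2 cells (log2 fold change 0.46, SE 0.09, adjusted p = 0.0141). Hsf4, known from the lens, was lower, with 7.98, 8.07 and 8.00 in shPARP2 cells against 8.27, 8.31 and 8.32 in scPARP2 cells (log2 fold change -0.28, SE 0.06, adjusted p = 0.0247). Hsf2 lost its call without any 1 of the scPARP2 arrays (adjusted p up to 0.0622), and Hsf4 lost it in 4 of the 6 fits that left out an array (adjusted p up to 0.119). Hsf3, Hsf5 and Hsf2bp were dim and overlapped between the lines.

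The DNAJC family, whose members serve many compartments, was mixed, with a median log2 fold change of -0.05. Of its 28 genes 3 were higher (10.7%, against 12.4% of all genes) and 2 were lower (7.14%, against 11.6%). Dnajc21, which acts in ribosome maturation, read 9.99, 10.18 and 10.24 in shPARP2 cells, against 9.49, 9.62 and 9.49 in scPARP2 cells (log2 fold change 0.60, SE 0.09, adjusted p = 0.00560). Dnajc25 rose by 0.51 (SE 0.07, adjusted p = 0.00459), and Dnajc11, a protein of the mitochondrial membranes that helps to shape cristae, rose by 0.45 (SE 0.06, adjusted p = 0.00493). None of these lost its call in any of the 13 alternatives. Dnajc10, a disulfide reductase of the endoplasmic reticulum, read 9.81, 9.90 and 10.09 in shPARP2 cells, against 10.28, 10.31 and 10.25 in scPARP2 cells (log2 fold change -0.35, SE 0.09, adjusted p = 0.0393). Dnajc15, which sits in the mitochondrial inner membrane, read 9.40, 9.51 and 9.36 in shPARP2 cells, against 9.78, 9.62 and 9.75 in scPARP2 cells (log2 fold change -0.30, SE 0.08, adjusted p = 0.0423). Both lost their calls in 5 of the 6 fits that left out an array, with adjusted p up to 0.137 for Dnajc10 and 0.161 for Dnajc15. The other 23 genes lay between -0.33 and 0.20, and 5 of them were dim.

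Genes known to be induced by heat through HSF1 were gathered in a list that includes genes outside the chaperone families. Like the other lists, it was drawn up with earlier results of these data known. Of its 23 genes 19 were measured, and of these 7 rose (36.8%, against 12.4% of all genes) and none fell (against 11.6%). At an unadjusted limma p under 0.05 these counts were 11 and 0. The list's median log2 fold change was 0.19, against -0.02 over all genes. The list shares 12 genes with the 81, so it is not a separate line of evidence. Of its 7 measured genes outside the 81, 2 rose and none fell. Chordc1, an HSP90-binding protein, read 10.15, 10.43 and 10.37 in shPARP2 cells, against 9.77, 9.62 and 9.62 in scPARP2 cells (log2 fold change 0.65, SE 0.10, adjusted p = 0.00540). Cacybp, which is also tied to HSP90, read 12.55, 12.59 and 12.81 in shPARP2 cells, against 12.17, 12.14 and 12.14 in scPARP2 cells (log2 fold change 0.50, SE 0.09, adjusted p = 0.00940). The lines did not overlap for 16 of the 19 genes. shPARP2 was above for 15 (78.9%, against 20.7% of all genes) and below for Hspb8 (5.26%, against 21.4%). The 12 genes of the list that did not pass include Hspa8, Hspb1, Hspd1, Hspe1 and Hsp90aa1. Those outside the 81 were Cryab, Ahsa1, Stip1, Fkbp4 and Serpinh1.

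In a list of 20 chaperones of the endoplasmic reticulum, which does not hold Dnajb12 or Dnajb14, none was higher at the threshold and only Dnajc10 was lower (2 and 3 at an unadjusted limma p under 0.05). The share past the test was 5%, against 24.0% of all genes, and the median log2 fold change was -0.07. Dnajb9, a J-domain protein induced by unfolded protein in this compartment, had a log2 fold change of 0.20 (adjusted p = 0.0754), and passed in 5 of the 13 alternatives. Dnajc3, another cochaperone of BiP, read 12.12, 11.89 and 12.50 in shPARP2 cells, against 12.32, 12.33 and 12.30 in scPARP2 cells. The shPARP2 arrays thus lay on both sides of a tight scPARP2 group. In this list shPARP2 replicate 3 was the highest of the shPARP2 arrays for 18 of 20 genes, against 39.2% of all genes. Replicate 2 was the lowest for 15, against 44.3%. Replicate 3 was also often the highest in sets that overlap this list. It was so for 12 of the 19 heat-inducible genes, Serpinh1 being in both lists (63.2%, against 39.2% of all genes). Of the 81 genes, 8 of which are in this list, it was the highest for 43 (53.1%). The same held for 12 of the 15 genes that were higher in shPARP2 cells (80%). The list had a median SD of 0.16 over shPARP2 arrays and 0.02 over scPARP2 arrays, while over all genes these medians were 0.12 and 0.06. Its summed level was 16.74 to 17.03 on shPARP2 arrays, around the 16.93 to 16.94 of the scPARP2 arrays.

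**Figure D3:**
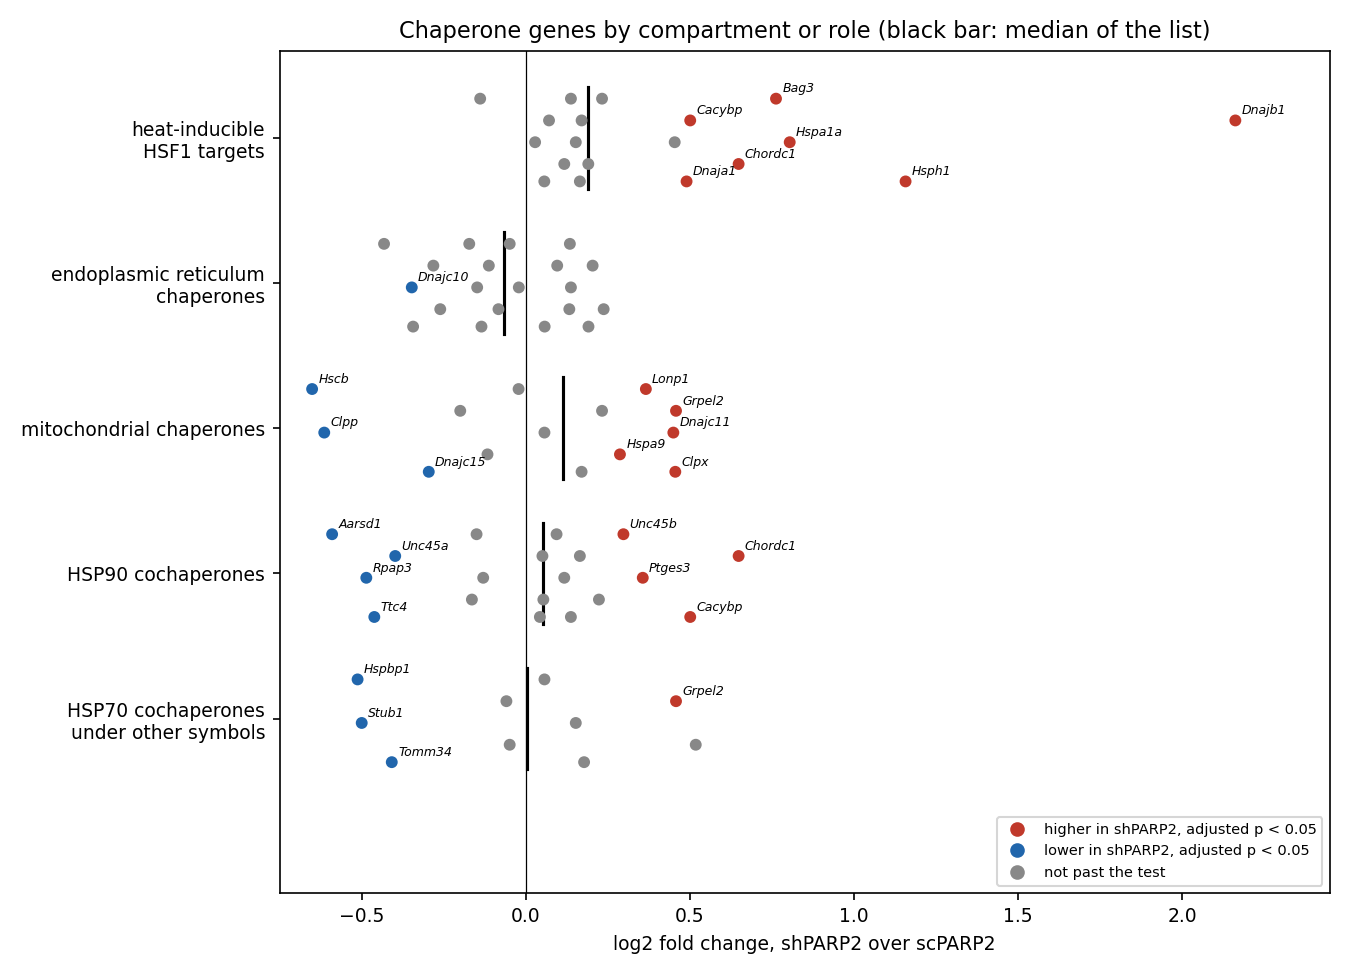
Log2 fold change of shPARP2 over scPARP2 cells (x axis) for the genes of 5 chaperone lists (rows; vertical offsets only separate the points), with the median of each list as a black bar and the genes past the test named. The heat-inducible list has a median of 0.19 and no gene past the test on the left, while the endoplasmic reticulum list has a median of -0.07 and no gene past the test on the right.

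Mitochondrial chaperones and proteases differed in both directions, with 5 of 14 genes higher, 3 lower and a median of 0.11. That is 35.7% higher and 21.4% lower, against 12.4% and 11.6% of all genes. Besides Hspa9 and Dnajc11, the higher genes were Grpel2, an exchange factor of mitochondrial HSP70 (log2 fold change 0.46), Clpx, the unfoldase of the ClpXP protease (0.46), and Lonp1, the matrix protease (0.37). Clpp, the protease subunit that CLPX serves, was lower, reading 10.62, 10.76 and 10.48 in shPARP2 cells, against 11.18, 11.30 and 11.22 in scPARP2 cells (log2 fold change -0.61, SE 0.09, adjusted p = 0.00525). Grpel1, the other exchange factor of mitochondrial HSP70, did not pass (log2 fold change 0.06, adjusted p = 0.64). The ClpXP subunits Clpx and Clpp thus moved in opposite directions. Hscb, the J-domain protein of iron-sulfur cluster assembly, was lower too (log2 fold change -0.65, SE 0.12, adjusted p = 0.0117), as was Dnajc15. Without 1 array Lonp1 lost its call in 5 of 6 fits (adjusted p up to 0.163), Clpx in 2 (up to 0.0614) and Hscb in 1, that without scPARP2 replicate 2 (0.0529).

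The cochaperones listed under other symbols included genes of both directions. Among 10 HSP70 cochaperones 1 was higher and 3 were lower (4 and 3 at an unadjusted limma p under 0.05). The shares past the test were 10% and 30%, against 12.4% and 11.6% of all genes. Grpel2 was the higher one, and the lower ones were Hspbp1, an exchange factor of HSP70 (log2 fold change -0.51), Stub1 (-0.50) and Tomm34, which serves import into mitochondria (-0.41). Among 19 HSP90 cochaperones 4 were higher and 4 were lower (21.1% in each direction). Chordc1, Cacybp, Ptges3, also called p23 (0.36), and Unc45b, the myosin chaperone of muscle (0.30), were higher. Aarsd1 (-0.59), Rpap3 (-0.49), Ttc4 (-0.46) and Unc45a, the general relative of Unc45b (-0.40), were lower. Of 8 chaperone family members under other symbols Gak, an auxilin (-0.37), and Hscb were lower (25%) and none was higher. At an unadjusted limma p under 0.05, 3 were lower and 0 higher. Without 1 array the calls of Ttc4, Stub1, Grpel2, Chordc1, Cacybp and Aarsd1 held, whereas Hspbp1, Tomm34, Gak, Ptges3, Unc45b, Rpap3 and Unc45a each lost theirs in 3 to 5 of 6 fits. The highest adjusted p in such a fit was 0.151, for Unc45b.

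Probe sets for a gene did not always read alike, and 10 probe sets that name several genes were left out of the counts above. The probe set shared by Hspa1a and its near-identical neighbour Hspa1b read 11.84, 11.60 and 12.03 in shPARP2 cells, against 10.06, 9.83 and 9.88 in scPARP2 cells. Its log2 fold change of 1.90 (SE 0.13, adjusted p = 0.000336, 95% interval 1.60 to 2.21) was larger than the 0.80 (0.61 to 1.00) of the probe set that names Hspa1a alone. The 3 probe sets of Hspa8 lay between 0.01 and 0.03, while a pair with identical values that name Hspa8 together with the snoRNAs Snord14c and Snord14d, which lie in its introns, gave 0.78 (adjusted p = 0.0081).

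Dnajb6, a J-domain protein that suppresses aggregation, had a probe set of its own at 0.13 (adjusted p = 0.743), whose sign turned to -0.09 without shPARP2 replicate 3. The 4 probe sets it shares with Gm4247 gave 0.40 to 0.44 and all passed. They were much brighter, at the 95.4th to 96.1th percentile of mean signal, against the 49.6th for its own probe set. Dnajb14, an HSP70 cochaperone in the membrane of the endoplasmic reticulum, gave -0.40 alone (adjusted p = 0.12), against 0.56 to 0.57, past the test, on the 2 probe sets it shares with Pin4. Of the 8 genes with more than 1 probe set of their own, Dnaja1 gave 0.49 on one and 0.23 on the other, which did not pass (adjusted p = 0.0590), and -0.07 on a probe set shared with Mir207. Hspd1 gave 0.23, not past the test, and 0.30 (adjusted p = 0.0315). Hspa8, Hsp90aa1, Hspb1, Hspe1, Dnajc3 and Dnajc13 passed on none, and the 15 probe sets of Dnajc13 ranged from 0.03 to 0.46. Chaperone genes have many processed copies in the mouse genome, and which copy each probe set reads was not tested.

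**Figure D4:**
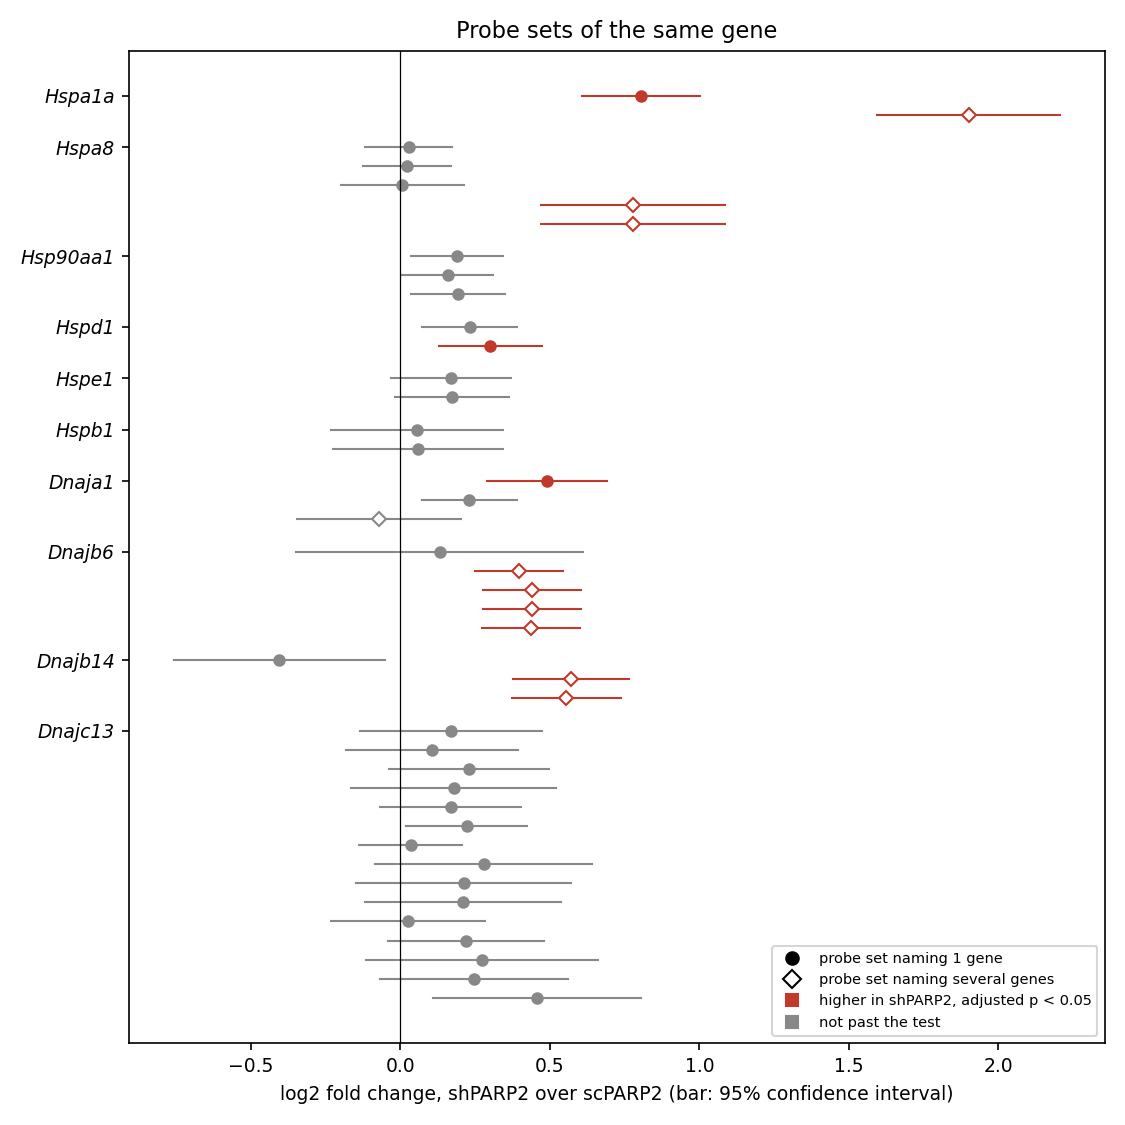
Log2 fold change of shPARP2 over scPARP2 cells with 95% confidence intervals (x axis) for each probe set of 10 genes (rows), circles for probe sets naming 1 gene and diamonds for those naming several. The shared probe sets of Hspa1a, Hspa8, Dnajb6 and Dnajb14 lie to the right of the unshared ones, and that of Dnaja1 lies to the left.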

How the data were processed

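RNA of shPARP2 and scPARP2 C2C12 cells had been hybridized to Affymetrix Mouse Gene 1.0 ST arrays. The authors deposited log2 values of 35556 probe sets, made with RMA per the submitters' processing notes, and its version is not given in the sources used here. Arrays give no read depth, and their number limits the precision. Names came from GEO's platform annotation, in which 21789 probe sets name 1 gene, 1621 several and 12146 none here. All 81 symbols were current.

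Following the methods of the article, a limma model without covariates (limma 3.58.1, R 4.3.3, lmFit then eBayes) was fitted to the deposited values, after a test on simulated data. Genes past an adjusted p of 0.05 over all probe sets were counted, with no filter on dim probe sets. Confidence intervals are at 95%. Counts over all genes use 1 probe set a gene.

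The genes and lists were chosen with earlier results of these data known. Named genes were a fixed set, up to 4 genes past the test in each direction per family and up to 3 per list. The other genes of the lists, and the other genes given with values, were named after their values were seen. Promoter windows were searched with Python 3.11.15, and figures were drawn with matplotlib 3.10.9. The promoter comparison carries no test.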

Additional observations from a re-analysis of the deposited data

How the results depend on the processing

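The count of 15 higher genes became 9 with a change of at least 1.5-fold and 26 at an unadjusted p under 0.05, and it ran from 12 to 18 with 1 array left out. The count of 4 lower genes became 2 after centring on array medians, 10 with array weights, 1 with the replicate number as a block, 0 at an adjusted p under 0.01, 1 with a change of at least 1.5-fold and 10 at an unadjusted p under 0.05, and it ran from 0 to 7 with 1 array left out. Of the 19 genes past the test, 12 passed in all 13 alternatives run for single genes. The other 7, Hspa9, Hspa14, Hsf2 and all 4 lower genes, each lost their call in at least 1 fit that left out an array. Of the 81 genes, 12 that did not pass were named irrespective of their result, and of these Hspa4, Hsp90aa1, Hspd1 and Dnajb9 passed in some alternatives. The direction turned for Hspb1 (-0.0204 to 0.162 with 1 array left out), Cryab (-0.00838 to 0.183) and Dnajb6 (-0.0850 to 0.308). The HSP90 median of 0.04 became 0.12 after quantile normalization. The cause of these shifts was not tested. The replicate numbers showed no sign of pairing the samples, though so few arrays cannot exclude it. Deviations of equally numbered arrays correlated at -0.05, 0.09 and 0.01, and those of differently numbered arrays at -0.10 to 0.09. The replicate block gave 14 higher genes. Precision is limited by 3 arrays a line, and 12 of the 81 genes were dim, none of them past the test.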

Other observations

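Other folding machines of the cytosol, TRiC and prefoldin, lie outside the families above. Of the 8 subunits of TRiC, the chaperonin that folds actin and tubulin, Cct6a was higher, reading 12.32, 12.30 and 12.44 in shPARP2 cells, against 11.99, 12.07 and 12.03 in scPARP2 cells (log2 fold change 0.32, SE 0.07, limma adjusted p = 0.0220). The other subunits did not pass, with a median log2 fold change of 0.00 over all 8. The share past the test was 12.5%, against 24.0% of all genes. Cct6a lost its call in 4 of the 6 fits that left out an array (adjusted p up to 0.1).

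Of the 6 prefoldin subunits, which hand nascent actin and tubulin to TRiC, 1 was higher and 1 was lower. Thus 33.3% passed, against 24.0% of all genes. Pfdn5 read 10.14, 10.15 and 10.04 in shPARP2 cells, against 10.97, 10.88 and 10.84 in scPARP2 cells (log2 fold change -0.78, SE 0.07, adjusted p = 0.000935), and it passed in all 13 alternatives. Vbp1 read 9.62, 9.66 and 10.07 in shPARP2 cells, against 9.21, 9.21 and 9.11 in scPARP2 cells (log2 fold change 0.61, SE 0.13, adjusted p = 0.0210). It lost its call without any 1 of the scPARP2 arrays (adjusted p up to 0.0836).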
